A study of Mus musculus with 7 samples.

Results

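Neurons of the embryonic mouse cortex pass through a short newborn stage before they settle in a layer, and 2 of the submitters' cell clusters lie on either side of that passage. The comparison described here sets cells with deposited label 2 against cells with deposited label 0, within the same samples. Members were taken by label alone, from libraries of embryonic day (E) 12.5, 14.5 and 15.5 that held at least 10 cells of each label. They were 2569 of the 10261 deposited cells, 996 with label 2 and 1573 with label 0, and all libraries together held 1008 and 1814 cells with these labels. The study took the dorsal forebrain from embryos of CD-1, an outbred mouse stock, and used Drop-seq, a droplet method that tags every transcript by cell and by molecule, so that counts are of unique molecular identifiers (UMIs). Its 7 samples run between E10.5 and E18.5. Label 2 and label 0 were both taken from 4 of them, with 800 cells at E12.5, 1293 and 186 cells in replicates 1 and 2 of E14.5, and 290 cells at E15.5. No genotype, mutation or treatment is named for any sample, and the labels do not say how many embryos or litters a sample holds. The p-values below therefore rest on how these samples vary, a spread that can be technical.

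As background, excitatory cortical neurons are born from radial glia at the ventricle, mostly by way of intermediate progenitors that express the T-box factor Eomes. A newborn neuron is multipolar for a time, switches on basic helix-loop-helix (bHLH) factors such as Neurod1 and Nhlh1, and then becomes bipolar and migrates along radial fibres under the control of reelin. Neurons of layers 5 and 6 are born first, and factors such as Fezf2, Bcl11b, Sox5 and Tbr1 set their projections to the thalamus, brainstem and spinal cord. Growth of the axon and assembly of synapses follow.

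The labels carry numbers and no names, so they were first set against marker lists. Each label was compared with all other cells of the libraries used, and not with cells of the other stages. Label 2 had 7 of 15 deep-layer neuron markers at least 2-fold above those cells (Tbr1, Bcl11b, Fezf2, Sox5, Ldb2, Cdh13 and Bcl11a). Cdh13 and Sox5 were among its 10 leading genes, and label 2 is deep-layer-neuron-like. Label 0 had 12 of 15 newborn neuron markers at 2-fold, 4 of them among its 10 leading genes (Unc5d, Slc17a6, Neurod1 and Nhlh1), and is newborn-neuron-like. The name of label 2 was less complete at the level of single cells. After each cell was thinned to 1000 UMIs, 56.2% of label 2 cells held more deep-layer than newborn marker UMIs and 32.7% held more newborn ones, while 9.71% of label 0 cells held more deep-layer and 84.6% more newborn ones. The label 2 share with more deep-layer UMIs was 65.6% in E14.5 replicate 1, and 44.7%, 45.7% and 44.8% at E12.5, in E14.5 replicate 2 and at E15.5. The label 2 share with more newborn UMIs was 23.1%, 44.3%, 43.5% and 44.8% in the same order. Outside E14.5 replicate 1 these shares of label 2 were thus nearly equal, and the pooled difference came mainly from that sample. Cells were captured at the same time and not followed, so that a difference between the labels is a difference between 2 sets of cells and not a measured course.

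The label 2 sums held 773243 UMIs at E12.5, 1115379 and 221632 UMIs in the E14.5 replicates and 207135 UMIs at E15.5, and the label 0 sums held 783504, 1192915, 431491 and 552931 UMIs in the same order. A count of 3 in a label 2 sum stood for between 2.69 and 14.5 CPM (counts scaled to a common total of 1e6 UMIs), so low genes were measured least well in E14.5 replicate 2 and at E15.5. The median label 2 cell had 2024, 1699, 3767 and 1734.5 UMIs, against 1378, 1376, 2744 and 2074 UMIs in the median label 0 cell. Label 2 cells were thus the deeper ones in 3 samples and the shallower ones at E15.5. The median number of genes per cell at 1000 UMIs was 730, 739, 761.5 and 711.5 in label 2, against 722, 731, 767 and 706 in label 0. The median mitochondrial share lay between 2.34% and 6.96% in label 2 and between 2.52% and 7.35% in label 0, and it was slightly lower in label 2 in all 4 samples. No cell barcode was shared between the 7 libraries among these cells.

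Markers of interneurons, endothelial cells, microglia and mesenchyme were few in both labels, while the progenitor lists summed to more. Summed over 15 interneuron genes, the level was 11.6 to 62.8 CPM in label 2 and 6.38 to 30.1 CPM in label 0, with Lhx6 and Nkx2-1 at 0 in both, and 3 and 4 of the genes at 0 in label 2 and label 0. Endothelial, microglial and mesenchymal lists of 10 genes each reached at most 14.5 CPM in any sum, with 5, 9 and 6 genes at 0 in label 2 and 3, 9 and 9 at 0 in label 0. The 10 Cajal-Retzius genes summed to 14.5 to 55.6 CPM in label 2 and 166 to 285 CPM in label 0, and Trp73 and Ndnf were at 0 in both. Of these sums, Nhlh2, which is also on the newborn neuron list, made up 20.4 CPM in label 2 and 179 CPM in label 0 on average, and it was the 1 gene of the list with enough counts for a test. The 12 radial glia genes summed to 290 to 574 CPM in label 2 and 590 to 955 CPM in label 0. A longer list of 18 radial glia genes differed less, with 999.7 to 1493.5 CPM in label 2 and 1146.6 to 1675.6 CPM in label 0. The 18 intermediate progenitor genes summed to 883 to 1392 CPM in label 2 and 2639 to 3439 CPM in label 0. The 8 erythroid genes summed to 31.0 to 94.8 CPM in label 2 and 39.8 to 1466 CPM in label 0, and 1 label 0 cell of E14.5 replicate 1 had over 2% haemoglobin UMIs. The part of these cells in the differences below was not tested, other than by leaving out that 1 cell, which ended the call of the globin gene Hbb-bs (edgeR adjusted p = 7.9e-08 with the cell and 0.581 without it).

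The first question was how many genes separated the labels. Of 7622 genes with enough counts, 1270 (16.7%) differed between label 2 and label 0 at an adjusted p under 0.05 in edgeR's quasi-likelihood test with the sample as a block. Of these, 669 (8.78% of tested genes) were higher in label 2 and 601 (7.89%) were lower. A change of at least 2-fold was reached by 258 higher genes (3.38%) and 218 lower genes (2.86%), 476 (6.25%) in all. The direction was the same in all 4 samples for 1150 of the 1270 genes and in all 7 libraries for 881 of them. The submitters made the labels from these same counts, so the genes had to differ in part by construction, and no p adds evidence for the labels. Each p sets a difference against a spread over samples that edgeR estimates in part from other genes. Such a p can be low where the samples are uneven, as for Hbb-bs above. Without E14.5 replicate 1, the most deeply sampled pair, 643 genes were called, DESeq2 called 568, and the fit without the sample block called 405.

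**Figure D1:**
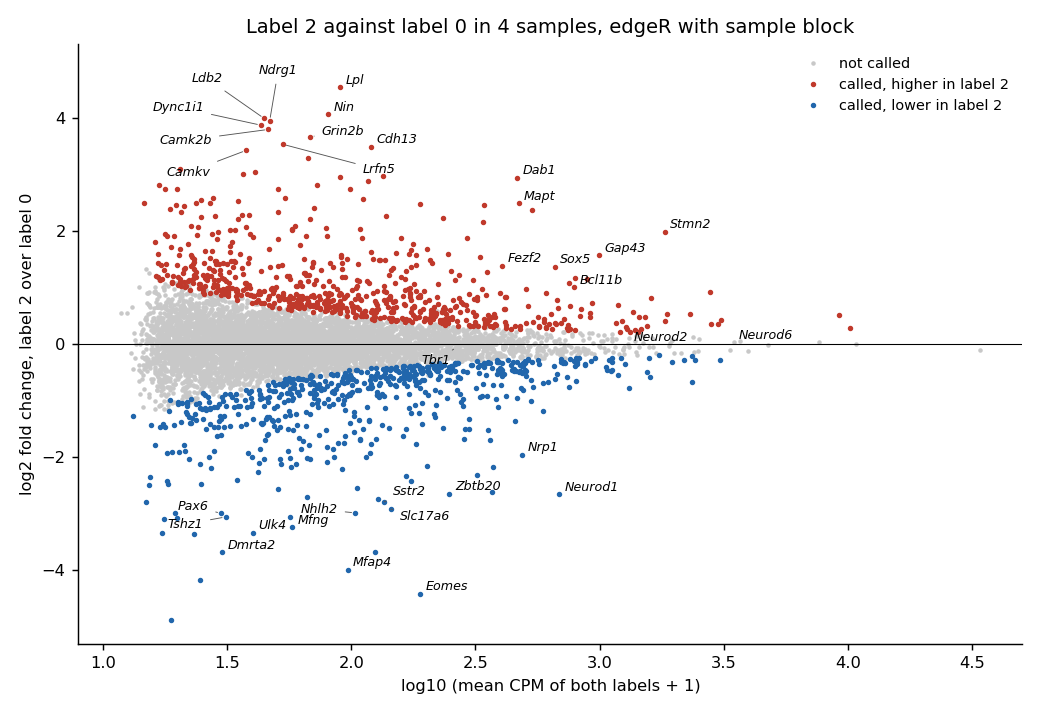
Fold change of each of the 7622 tested genes (label 2 over label 0, log2) against its mean level in both labels (log10 of CPM plus 1). Red points are the 669 genes called higher in label 2, blue points the 601 called lower, grey points the others; Lpl stands highest and Eomes lowest among the named genes, and Neurod2, Neurod6 and Tbr1 lie near 0.

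The T-box factor Eomes, which marks intermediate progenitors, fell furthest among the genes with at least 50 CPM in the higher label. It had 20.4 CPM at E12.5, 18.9 and 17.7 CPM in the E14.5 replicates and 0 CPM at E15.5 in label 2, against 419, 364, 284 and 383 CPM in label 0. Every label 2 sum was far below every label 0 sum, and the 0 at E15.5 still allows up to 14.5 CPM at that depth. Its log2 fold change was −4.41 ± 0.20 (SE, edgeR adjusted p = 2.68e-13, lower in 4 of 4 samples). The Eomes gene lies on chromosome 9 (118478212 to 118486132, plus strand, GRCm38). The other intermediate progenitor genes moved with it. Of the 15 tested of 18 in that list, 14 fell in label 2, none rose, and the median log2 fold change was −1.53, against −0.01 over all tested genes. Neurog2, the proneural factor of cortical progenitors, averaged 29.5 ± 9.95 CPM in label 2 and 85.1 ± 22.6 CPM in label 0 (SD, n = 4 each; log2 fold change −1.53). Mfng, a fringe enzyme that modifies Notch, and Mfap4, a matrix-associated protein, fell by 3.24 and 3.99 on the log2 scale. The Notch ligands Dll3 and Dll1 fell by 1.61 and 1.33, although Dll1 was not lower at E15.5, with 10.6 CPM in label 2 and 9.77 CPM in label 0, and was not called without E12.5 (edgeR adjusted p = 0.165).

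Of 14 tested of 18 genes of the bHLH list, 7 fell, 2 rose and 5 were not called. Among all tested genes, 7.89% fell and 8.78% rose. Neurod1, a driver of neuronal differentiation, had 309, 113, 181 and 165 CPM in label 2 at E12.5, in the 2 E14.5 replicates and at E15.5, against 1274, 1088, 1076 and 1296 CPM in label 0. The groups did not overlap, and the lowest label 0 sum was above the highest label 2 sum by a wide margin. Its log2 fold change was −2.66 ± 0.14 (SE, edgeR adjusted p = 7.74e-13). Nhlh1 and its paralogue Nhlh2, factors of newly formed neurons, averaged 50 ± 37.6 and 21.0 ± 15.4 CPM in label 2, against 279 ± 67.8 and 184 ± 47.7 CPM in label 0 (SD, n = 4 each), and fell by 2.34 and 2.99 on the log2 scale. In contrast, Neurod2 and Neurod6, which stay on in cortical projection neurons, were called in neither direction. Neurod2 had 1541, 1418, 1034 and 1203 CPM in label 2, against 1512, 1469, 966 and 1282 CPM in label 0, a log2 fold change of −0.01 ± 0.07 (SE, edgeR adjusted p = 0.967). Neurod6 averaged 3500.5 ± 358 CPM in label 2 and 3422 ± 454 CPM in label 0 (log2 fold change 0.03 ± 0.08, SE; edgeR adjusted p = 0.859). The labels overlapped for both genes, and 2 and 3 of 4 samples were higher in label 2. The log2 ratio of Neurod6 was −0.34 at E12.5, 0.04 and 0.19 in the E14.5 replicates and 0.26 at E15.5, a change per day of 0.21 (edgeR adjusted p = 0.0131) that was not called without E12.5 (0.719), without E14.5 replicate 1 (0.189) or by DESeq2. The 2 genes of the list that rose were Bhlhe22, a factor of cortical area and projection identity (log2 fold change 0.47), and the inhibitor of bHLH factors Id2 (0.73, higher in 3 of 4 samples). The partners that pair with tissue-specific bHLH factors, Tcf3, Tcf4 and Tcf12, fell by 0.97, 0.67 and 1.3.

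**Figure D2:**
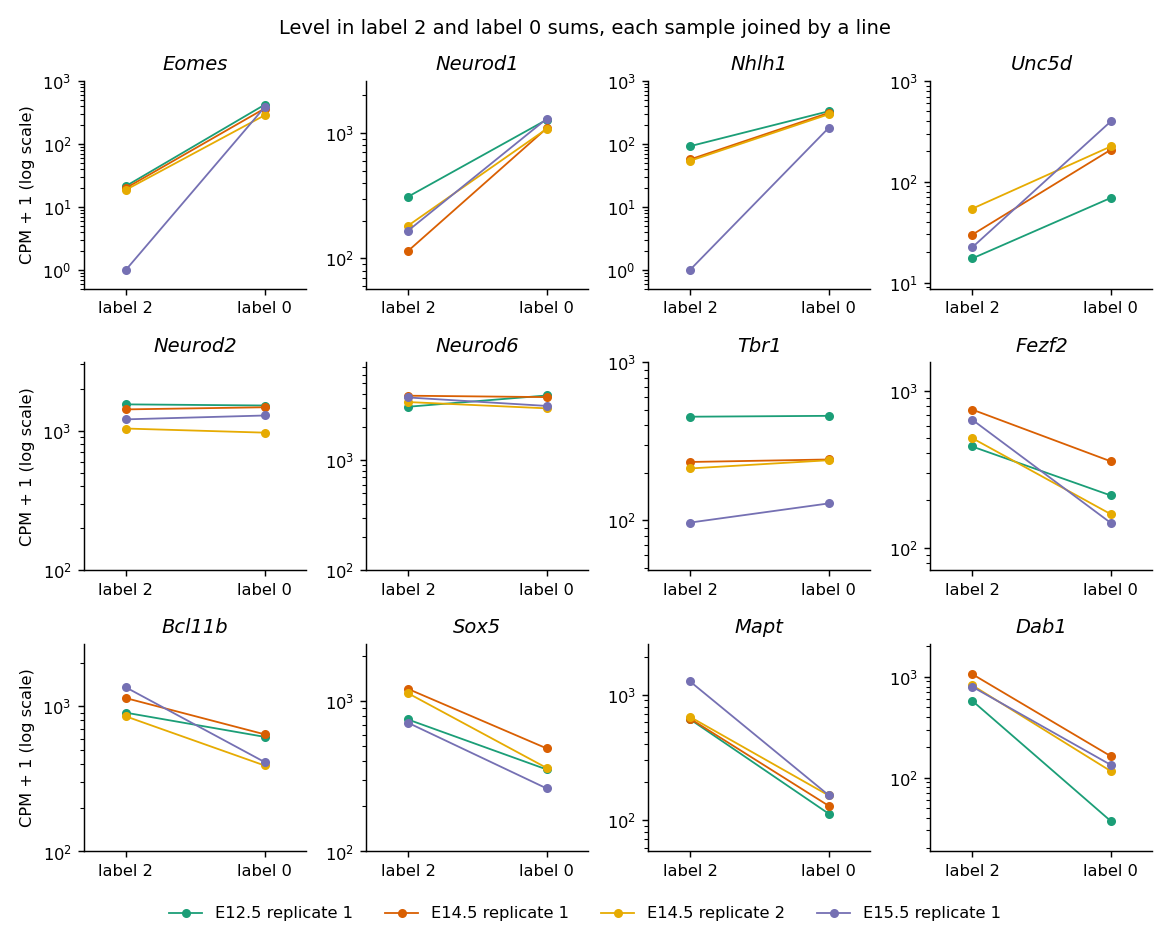
Level of 12 genes in the label 2 and label 0 sums of each sample (CPM plus 1, log scale), with a line joining the 2 sums of a sample. Eomes, Neurod1, Nhlh1 and Unc5d are lower in label 2 in all 4 samples, Neurod2, Neurod6 and Tbr1 stay nearly level, and Fezf2, Bcl11b, Sox5, Mapt and Dab1 are higher in label 2 in all 4; the points at the foot of the Eomes and Nhlh1 panels are E15.5 sums with 0 counts.

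Other genes of the newborn and multipolar stage fell in the same samples. Of 20 tested of 24 in that list, 16 fell and 1 rose, with a median of −1.29, but 12 of these 20 genes also served to check label 0, so the count describes the label and does not test it. Unc5d, a netrin receptor of multipolar cells, had 16.3, 28.8, 53.0 and 21.3 CPM in label 2, against 68.2, 207, 223 and 397 CPM in label 0 (log2 fold change −2.73 ± 0.21, SE; edgeR adjusted p = 1.27e-09). Its label 0 level was lowest at E12.5 and highest at E15.5, and the 2 labels did not overlap. Slc17a6, the vesicular glutamate transporter VGLUT2, averaged 31.1 ± 25.2 CPM in label 2 and 256 ± 62.6 CPM in label 0, and the somatostatin receptor Sstr2 averaged 30.6 ± 27.8 and 239 ± 46.6 CPM in the same order (SD, n = 4 each; log2 fold changes −2.92 and −2.79). Rnd2, a small GTPase needed for the exit from the multipolar stage, fell by 0.95. The SoxC factors Sox11 and Sox4, which open neuronal genes, fell by only 0.48 and 0.21, and Sox4 was near the threshold (edgeR adjusted p = 0.0423), with 2188 ± 489 CPM in label 2 and 2500.5 ± 427 CPM in label 0. Without E12.5, E14.5 replicate 1 or E14.5 replicate 2 Sox4 was not called (edgeR adjusted p = 0.340, 0.168 and 0.0808). Cntn2 (TAG-1), an adhesion protein of growing axons, was the 1 gene of the list that rose, at 827 ± 265 CPM in label 2 and 613 ± 187 CPM in label 0 (log2 fold change 0.43). The remaining genes among the 10 largest falls were the patterning factor Dmrta2 (−3.68), the kinase-like gene Ulk4 (−3.34), the zinc finger factor Tshz1 (−3.06) and the radial glia factor Pax6 (−2.99). In every sample Dmrta2, Ulk4, Tshz1 and Pax6 were lower in label 2.

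Promoter windows of these falling genes were read for the letters CAGATG, an E-box that factors of the Neurod and Neurog families are known to bind, on both strands. Among the 10 genes with the largest falls, 7 had a window that was read in the RefSeq table (GRCm38.p6, 250 bases before to 50 after the start), and Nhlh2 and Slc17a6 held the letters. Of the 10 genes with the largest rises, 5 had a window that was read and 0 held them. For these named genes the windows of a chromosome that the shares below include were left out. A named gene counted as without a window may therefore have one. The windows of Nhlh2, of the second listed start of Slc17a6 and of Eomes, which holds no match, are given 5′ to 3′ on the gene's strand, with the E-box in capitals, because these 3 genes are among the 10 largest falls and the pair with a match can be set beside one without.
Nhlh2, chr3:102009895-102010194, plus strand: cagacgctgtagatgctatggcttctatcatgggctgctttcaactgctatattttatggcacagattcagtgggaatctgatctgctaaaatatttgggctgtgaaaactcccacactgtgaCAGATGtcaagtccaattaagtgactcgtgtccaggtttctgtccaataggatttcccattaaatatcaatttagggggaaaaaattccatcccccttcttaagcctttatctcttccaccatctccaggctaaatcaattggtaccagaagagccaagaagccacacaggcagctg
Slc17a6, chr7:51624387-51624686, plus strand: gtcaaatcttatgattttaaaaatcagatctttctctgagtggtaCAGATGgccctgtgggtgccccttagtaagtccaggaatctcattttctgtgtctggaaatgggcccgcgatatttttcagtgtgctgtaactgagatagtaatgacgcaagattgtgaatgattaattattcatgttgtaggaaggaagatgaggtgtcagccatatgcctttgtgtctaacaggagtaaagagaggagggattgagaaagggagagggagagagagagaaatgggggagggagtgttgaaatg
Eomes, chr9:118477939-118478238, plus strand: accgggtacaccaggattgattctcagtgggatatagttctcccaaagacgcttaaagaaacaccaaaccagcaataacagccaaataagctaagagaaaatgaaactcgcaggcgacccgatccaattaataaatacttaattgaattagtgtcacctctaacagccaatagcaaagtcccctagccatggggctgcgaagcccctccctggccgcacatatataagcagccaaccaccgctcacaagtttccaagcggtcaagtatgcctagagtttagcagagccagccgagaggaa
Over all genes called at 2-fold, the letters stood in the windows of 24 of 153 lower genes (15.7%) and 29 of 188 higher genes (15.4%), against 711 of 5796 tested genes with a window (12.3%). Both called groups were thus alike in this respect. The T-box half-site AGGTGTGA, searched in the same way, stood in 0 of 153 lower, 5 of 188 higher (2.66%) and 48 of 5796 tested genes (0.828%). A match is only a match of letters.

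Among the regulators of deep-layer fate, Fezf2, Bcl11b and Sox5 rose and Tbr1 did not change detectably. Fezf2, which specifies subcerebral projection neurons, had 441, 760, 499 and 655 CPM in label 2 at E12.5, in the E14.5 replicates and at E15.5, against 214, 354, 162 and 143 CPM in label 0 (log2 fold change 1.38 ± 0.13, SE; edgeR adjusted p = 3.02e-08). The lowest label 2 sum was above the highest label 0 sum. Bcl11b (CTIP2), which acts downstream of Fezf2 in corticospinal neurons, had 904, 1140, 853 and 1352 CPM in label 2, against 616, 641, 390 and 412 CPM in label 0 (log2 fold change 1.0 ± 0.12, SE; edgeR adjusted p = 6.76e-07). Sox5, which controls the order in which deep-layer subtypes appear, averaged 953 ± 252 CPM in label 2 and 364 ± 91.6 CPM in label 0 (SD, n = 4 each; log2 fold change 1.36). Tbr1, the layer 6 factor that follows Eomes in the lineage, had 452, 233, 212 and 95.8 CPM in label 2, against 458, 242, 239 and 127 CPM in label 0 (log2 fold change −0.09 ± 0.11, SE; edgeR adjusted p = 0.648). Its level differed far more between samples, highest at E12.5 and lowest at E15.5, than between labels. Tle4, a corepressor of layer 6, averaged 78.8 ± 32.5 CPM in label 2 and 72.5 ± 13.4 CPM in label 0 and was not called (log2 fold change −0.10). Foxp2, another layer 6 factor, had too few counts for the test, with 5.32 to 8.84 CPM in label 2 and 11.3 to 41.4 CPM in label 0, lower in label 2 in every sample.

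Of the 15 tested of 24 deep-layer genes, 7 rose and 2 fell. Of these 15 genes, 11 belong to the marker list that was set against label 2, 6 of the 7 rises among them (all but Foxp1), so the count describes the label and does not test it. The largest rises were Ldb2, a cofactor of LIM-domain factors, and Cdh13, an atypical cadherin of deep-layer neurons. Cdh13 had 241, 250, 186 and 197 CPM in label 2, against 17.4, 24.5, 15.8 and 19.5 CPM in label 0, and its label 2 sums were all close to each other (log2 fold change 3.48 ± 0.18, SE; edgeR adjusted p = 7.74e-13). The 2 that fell were Nxph4 (−1.35, not called without E14.5 replicate 1, edgeR adjusted p = 0.0536) and Pcp4, a calmodulin-binding protein of layer 5 and 6 neurons in older cortex (118 ± 71.3 CPM in label 2 and 627 ± 212 CPM in label 0, log2 fold change −2.17).

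Regulators of upper-layer fate were mostly lower in label 2. Of 13 tested of 16 such genes, 7 fell and 1 rose, with a median of −1.04. Among all tested genes, 7.89% fell and 8.78% rose. Pou3f2 (BRN2), a POU factor of late-born neurons, had 6.81, 34.2, 70.7 and 112 CPM in label 2, against 69.6, 176, 264 and 655 CPM in label 0. Both labels had their lowest level at E12.5 and their highest at E15.5, so that the labels overlapped across stages while label 2 was lower within each sample (log2 fold change −2.42 ± 0.17, SE; edgeR adjusted p = 2.6e-10). Cux1 and Cux2, markers of upper layers, fell by 1.63 and 2.0, and the LIM homeobox factor Lhx2 fell by 1.68. The upper-layer gene that rose was Lpl, lipoprotein lipase, which had 105, 180, 61.8 and 341 CPM in label 2 against 9.37, 5.07, 6.77 and 7.82 CPM in label 0. This was the largest rise among genes with at least 50 CPM (log2 fold change 4.53 ± 0.28, SE; edgeR adjusted p = 2.12e-11), and the 2 labels were far apart in all 4 samples.

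Among 22 tested of 25 other transcription factors of neurons, 4 rose and 6 fell, where 8.78% of all tested genes rose and 7.89% fell. DESeq2 called 4 rises and 3 falls, and without E14.5 replicate 1 there were 2 rises and 4 falls. Mef2c, an activity-regulated factor of maturing neurons, averaged 189 ± 48.0 CPM in label 2 and 33.2 ± 13.0 CPM in label 0 (SD, n = 4 each; log2 fold change 2.56). Zbtb20, a repressor active in progenitors and the hippocampal anlage, had 24.5, 52.2, 61.8 and 122 CPM in label 2, against 150, 310, 388 and 870 CPM in label 0 (log2 fold change −2.65 ± 0.14, SE; edgeR adjusted p = 7.74e-13). Both labels carried more Zbtb20 at later stages, and label 2 had less in each sample. Foxp1 and Lmo1 rose by 0.79 and 0.78 on the log2 scale but were not called without E14.5 replicate 1 (edgeR adjusted p = 0.121 and 0.0676), and Myt1, a zinc finger factor of early neurons, fell by 1.34.

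Genes of the neuronal cytoskeleton and growth cone were the list with the most rises. Of 35 tested of 37, 23 rose and 3 fell, with a median of 0.50, where 8.78% of all tested genes rose and 7.89% fell. Mapt, which encodes the axonal microtubule protein tau, had 634, 642, 663 and 1272 CPM in label 2, against 111, 129, 156 and 156 CPM in label 0, so that label 2 stood clear of label 0 in every sample (log2 fold change 2.49 ± 0.12, SE; edgeR adjusted p = 2.68e-13). The intermediate filament genes Ina and Nefm rose by 2.37 and 2.27, and Stmn2, a tubulin-binding protein of growth cones, by 1.98. Gap43, the growth-associated protein of extending axons, averaged 1493 ± 338 CPM in label 2 and 498 ± 101 CPM in label 0 (SD, n = 4 each; log2 fold change 1.57). The tubulins Tubb3, Tuba1a and Tubb2b, already abundant in label 0, rose by only 0.41, 0.50 and 0.53, and doublecortin (Dcx) was not called (log2 fold change −0.16). The 3 genes that fell were the kinesins Kif21a and Kif21b (−1.18 and −1.13) and the actin-regulating substrate Marcks (−0.59).

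In the migration list, 24 of 30 genes were tested, 7 rose and 11 fell, where 8.78% of all tested genes rose and 7.89% fell. Among the genes that receive reelin signals, Dab1 and Vldlr rose and Lrp8 fell. Dab1, the adaptor that relays reelin signals inside the neuron, had 580, 1065, 826 and 798 CPM in label 2, against 36.1, 162, 115 and 133 CPM in label 0, and every label 2 sum was above every label 0 sum (log2 fold change 2.94 ± 0.14, SE; edgeR adjusted p = 2.68e-13). Of the 2 reelin receptors, Vldlr rose by 1.80 (49.7 ± 11.4 CPM in label 2 and 14.7 ± 10.7 CPM in label 0) and Lrp8 fell by 0.56. The cyclin-dependent kinase inhibitors Cdkn1b and Cdkn1c, which also act in migration, fell by 0.92 and 0.78, and the GTPase Rnd3 fell by 1.42.

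Of 30 tested of 48 axon guidance genes, 5 rose and 14 fell, where 8.78% of all tested genes rose and 7.89% fell. The Slit receptors parted: Robo1 had 46.3, 145, 115 and 197 CPM in label 2, against 22.7, 32.1, 45.1 and 29.3 CPM in label 0 (log2 fold change 1.91 ± 0.23, SE; edgeR adjusted p = 1.22e-06), while Robo2 had 95.3, 191, 252 and 176 CPM in label 2, against 546, 537, 508 and 586 CPM in label 0 (−1.70 ± 0.15, SE; edgeR adjusted p = 7.54e-09). Neither gene had label 2 and label 0 sums that overlapped. The neuropilins Nrp1 and Nrp2, receptors of class 3 semaphorins, fell by 1.97 and 1.53, and the ligands Sema3c and Sema3a by 2.0 and 1.3. The netrin receptor Dcc was not called (72.4 ± 14.3 CPM in label 2 and 75.6 ± 16.2 CPM in label 0). Of the ephrin receptors tested, Epha3, Epha4, Epha5 and Epha7 fell by 1.21, 1.51, 0.36 and 0.81, and Ephb2 was not called (log2 fold change 0.33). Besides Robo1, the genes of the list that rose were Sema4d, Flrt2, Efna3 and Draxin, by 2.09, 1.47, 1.41 and 0.82.

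Of 29 tested of 45 adhesion genes, 11 rose, 7 fell and 11 were not called, where 8.78% of all tested genes rose and 7.89% fell. Among the cadherins, Cdh13 and Cdh11 rose (Cdh11 by 2.2) and Cdh8, Cdh10 and Cdh4 fell by 1.93, 1.89 and 1.27. The IgLON protein Ntm had 23.1, 208, 168 and 415 CPM in label 2, against 2.68, 27.1, 20.3 and 62.5 CPM in label 0, with the lowest level of both labels at E12.5 (log2 fold change 2.88). The protocadherins Pcdh7 and Pcdh10 fell by 2.11 and 1.85 while Pcdh19 and Pcdh9 rose by 1.47 and 0.67.

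Of 28 tested of 35 presynaptic genes, 13 rose, 2 fell and 13 were not called, with a median of 0.67. Of 18 tested of 36 receptor and postsynaptic genes, 11 rose, 1 fell and 6 were not called, with a median of 0.83. Of all tested genes, 8.78% rose and 7.89% fell. DESeq2 called 11 rises of the presynaptic list and 6 of the receptor and postsynaptic list. Without E14.5 replicate 1 there were 12 and 7 rises, and each list had 1 fall in both settings. Syt1, the calcium sensor of vesicle release, had 151, 68.4, 53.0 and 101 CPM in label 2, against 37.5, 12.7, 15.8 and 25.4 CPM in label 0 (log2 fold change 2.09 ± 0.22, SE; edgeR adjusted p = 1.34e-07). The labels did not overlap, and both were highest at E12.5. The SNARE protein gene Snap25 averaged 234 ± 68.7 CPM in label 2 and 110 ± 17.0 CPM in label 0 (log2 fold change 0.99), and the vesicle-associated Cplx1 rose by 2.2. The 2 presynaptic genes that fell were Slc17a6, described above, and the active-zone gene Rims2 (−1.12, not called without E14.5 replicate 1, edgeR adjusted p = 0.127). On the postsynaptic side, Grin2b, the NMDA receptor subunit of immature neurons, had 46.3, 99.9, 141 and 213 CPM in label 2, against 4.01, 6.76, 13.5 and 15.6 CPM in label 0 (log2 fold change 3.66 ± 0.26, SE; edgeR adjusted p = 1.74e-10). Its level was higher at later stages in both labels without any overlap between them. Camk2b and Shank1, a kinase and a scaffold of the postsynapse, rose by 3.79 and 2.50, and Lrfn5, a synaptic adhesion protein, by 3.53. The AMPA receptor subunit Gria2 rose by only 0.26, at 1385 ± 365 CPM in label 2 and 1183 ± 399 CPM in label 0, and was not called without E12.5 or either E14.5 replicate (edgeR adjusted p = 0.104, 0.0827 and 0.0796), whereas Gria1 rose by 2.25. The kainate receptor subunit Grik2 was the 1 that fell (−1.25).

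Of 16 tested of 33 voltage-gated channel genes, 5 rose and 3 fell, where 8.78% of all tested genes rose and 7.89% fell. With DESeq2, or without E14.5 replicate 1, 3 rose and 0 fell. Kcnq3, a subunit of the M-type potassium channel, averaged 274 ± 105 CPM in label 2 and 78.6 ± 22.7 CPM in label 0 (SD, n = 4 each; log2 fold change 1.77), and the sodium channel genes Scn2a1 and Scn3b rose by 1.74 and 1.67. The other large rises were Nin, a microtubule-anchoring protein (149 ± 60.6 CPM in label 2 and 10 ± 4.99 CPM in label 0, log2 fold change 4.06), Ndrg1, a stress-responsive gene (3.94), Dync1i1, a dynein intermediate chain of neurons (3.87), and the kinase-like vesicle protein gene Camkv (3.42). In each of these 4 genes label 2 was above label 0 in all 7 libraries.

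RNA-binding and chromatin genes mostly changed by less than 2-fold. Of 28 tested of 30 splicing and RNA-binding regulators, 5 rose (17.9%), 6 fell (21.4%) and 17 were not called. Among all tested genes, 8.78% rose and 7.89% fell. Rbfox1 averaged 209 ± 38.8 CPM in label 2 and 117 ± 45.8 CPM in label 0 (SD, n = 4 each; log2 fold change 0.96), while its paralogue Rbfox3 (NeuN) fell by 1.03. Celf4 and Celf2 rose by 0.43 and 0.56, Elavl2 and Elavl4 fell by 0.97 and 0.95, and Ptbp2, a repressor of neuronal exons in early neurons, fell by 0.50 with 1 of 4 samples, E15.5, going the other way, and was not called without E14.5 replicate 1 (edgeR adjusted p = 0.127). In the chromatin remodelling complex BAF, whose subunits are exchanged as progenitors become neurons, the neuronal subunit genes Actl6b (BAF53B) and Dpf1 (BAF45B) rose and the progenitor subunit gene Actl6a (BAF53A) fell. Actl6b had 191, 149, 163 and 213 CPM in label 2, against 77.6, 76.9, 106 and 97.7 CPM in label 0 (log2 fold change 1.02 ± 0.15, SE; edgeR adjusted p = 1.53e-05), with no overlap. Actl6a averaged 105 ± 27.3 CPM in label 2 and 154 ± 43.4 CPM in label 0 (log2 fold change −0.58), and was not called without E12.5 or either E14.5 replicate (edgeR adjusted p = 0.126, 0.0845 and 0.0601). Of the 22 tested BAF genes 3 rose, 5 fell and 14 were not called, where 8.78% of all tested genes rose and 7.89% fell. With DESeq2, or without E14.5 replicate 1, 3 rose and 0 fell. Other subunit genes, among them Ss18 (−0.68), Ss18l1 (−0.04), Phf10 (−0.39) and Smarcd3 (0.10), were not called.

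Cell cycle genes were low on both sides. Of 30 genes of G2 and M phase only 7 had enough counts for a test, and of 31 of S phase 15 did. Hmgb2 and Smc4 fell, 1 S phase gene (Prim1) rose, and the other 19 were not called. Prim1 was not called without E12.5 or E14.5 replicate 2 (edgeR adjusted p = 0.0821 and 0.109). Regulators of G1 and cell cycle exit moved more, with 8 falls and no rise among 13 tested of 21. Among all tested genes, 7.89% fell and 8.78% rose. Ccnd2, the D-type cyclin passed on by dividing progenitors, had 64.0, 78.3, 106 and 21.3 CPM in label 2, against 193, 172, 210 and 213 CPM in label 0 (log2 fold change −1.43 ± 0.19, SE; edgeR adjusted p = 3.21e-06), and the labels did not overlap. Gadd45g, Btg2 and Tob1, which hold cells back from division, fell by 1.78, 1.11 and 0.85, and Btg2 was not called without either E14.5 replicate (edgeR adjusted p = 0.145 and 0.0701).

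**Figure D3:**
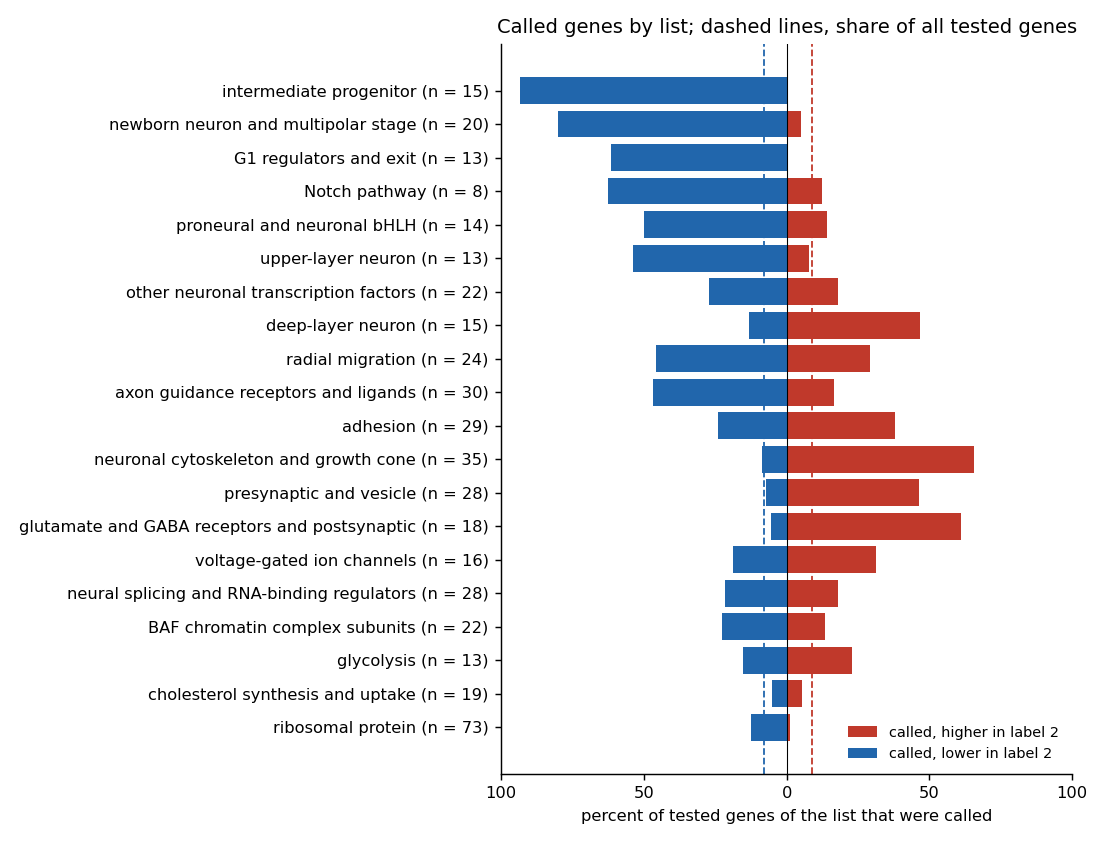
Share of the tested genes of each list that was called (percent), with genes lower in label 2 to the left in blue and genes higher in label 2 to the right in red; the dashed lines give the share among all 7622 tested genes, 7.89% lower and 8.78% higher. Intermediate progenitor and newborn lists reach furthest to the left, the cytoskeleton list furthest to the right, and the cholesterol list stays near the dashed lines.

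Levels in 2 further labels of the same 4 samples were set beside the step, in an order of labels that was chosen and not measured. Label 4 (755 cells), led by Neurog1, Neurog2 and Eomes, had 15 of 18 intermediate progenitor markers at 2-fold, and label 11 (366 cells), led by Hs3st4, Mc4r and Grik3, had 12 of 15 deep-layer markers at 2-fold but none among its 10 leading genes. As CPM over the plain total, averaged over 4 samples, Neurod1 had 499 in label 4, 1149.6 in label 0, 185 in label 2 and 50 in label 11. Unc5d peaked in the same place, with 48.2, 217, 29.4 and 2.97 CPM in that order of labels, as did Robo2 with 159, 529, 174 and 35.4 CPM. Eomes and Neurog2 instead were highest in label 4, at 1867 and 1160.1 CPM. Mapt had 34.3 CPM in label 4, 134 in label 0, 768 in label 2 and 1619 in label 11, and Mef2c had 11.2, 32.4, 181 and 770 CPM. Grin2b stood at 10 and 9.73 CPM in labels 4 and 0 and at 120 and 294 CPM in labels 2 and 11. These levels describe clusters made from the same counts and were not tested.

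**Figure D4:**
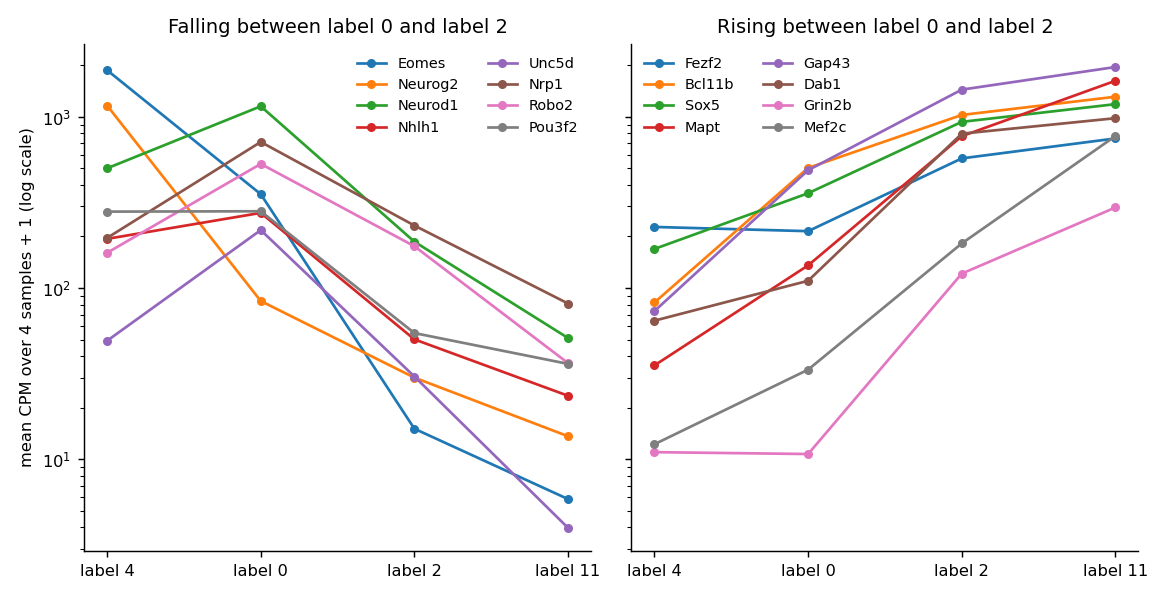
Mean level over 4 samples (CPM over the plain total, plus 1, log scale) of 8 genes that fell and 8 that rose between label 0 and label 2, in labels 4, 0, 2 and 11. Neurod1, Nhlh1, Unc5d, Nrp1 and Robo2 are highest in label 0, Eomes and Neurog2 in label 4, and all 8 rising genes are highest in label 11.

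The next question was whether the step itself differed with embryonic day, which the labels do not fix. The test of a change per day called 66 genes (0.866% of 7622), 25 of them with a rising log2 ratio of label 2 over label 0 and 41 with a falling one (0.328% and 0.538%). The difference rests on 4 samples with 1 each at E12.5 and E15.5. Without E12.5, 26 genes were called and 7 of them were among the 66, without E14.5 replicate 1 41 genes were called, DESeq2 called 2, and the fit without the sample block called 0, so each value below is a result of this 1 fit unless another is named. Nrp1 had a log2 ratio that rose by 0.91 per day (edgeR adjusted p = 4.58e-11), with 34.0, 175, 252 and 506 CPM in label 2, against 411, 807, 769 and 932 CPM in label 0. The fall of Nrp1 in label 2 was thus deepest at E12.5 and shallowest at E15.5. Mpped1, a metallophosphoesterase of cortical neurons, had 116, 345, 327 and 192 CPM in label 2, against 10.7, 223, 287 and 266 CPM in label 0, and its log2 ratio fell by 1.26 per day (edgeR adjusted p = 4.53e-10). It was far higher in label 2 at E12.5 and lower in label 2 at E15.5. Nrp1 and Mpped1 were the 2 genes that DESeq2 also called (adjusted p = 0.00164 for each).

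The log2 ratios of the corepressor Runx1t1 and of Bcl11b rose by 0.70 and 0.32 per day. Without E12.5 the slope of Runx1t1 was 0.17 (edgeR adjusted p = 0.922). For Bcl11b label 2 had 904 CPM at E12.5 and 1352 CPM at E15.5, against 616 and 412 CPM in label 0 at these stages. Ryr3, Pard3, Ssbp2 and Afap1 changed by 1.90, 1.37, 0.97 and 0.79 per day, and Gria3, Syn2, Gabra2, Ppp1r14c and Wbscr17 by −1.46, −1.3, −1.02, −0.94 and −0.92. For Gria3, an AMPA receptor subunit, label 2 had 124, 111, 30.9 and 31.9 CPM, against 10.7, 61.7, 47.4 and 58.6 CPM in label 0, so that the direction at E12.5 and in E14.5 replicate 1 was opposite to that in the other 2 samples. Neurod1 and Dab1 had slopes of −0.42 and −0.49 per day. The slopes of Neurod1, Robo2, Syn2 and Gabra2 changed sign when E12.5 was left out, to 0.10, −0.38, 0.49 and 0.87.

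**Figure D5:**
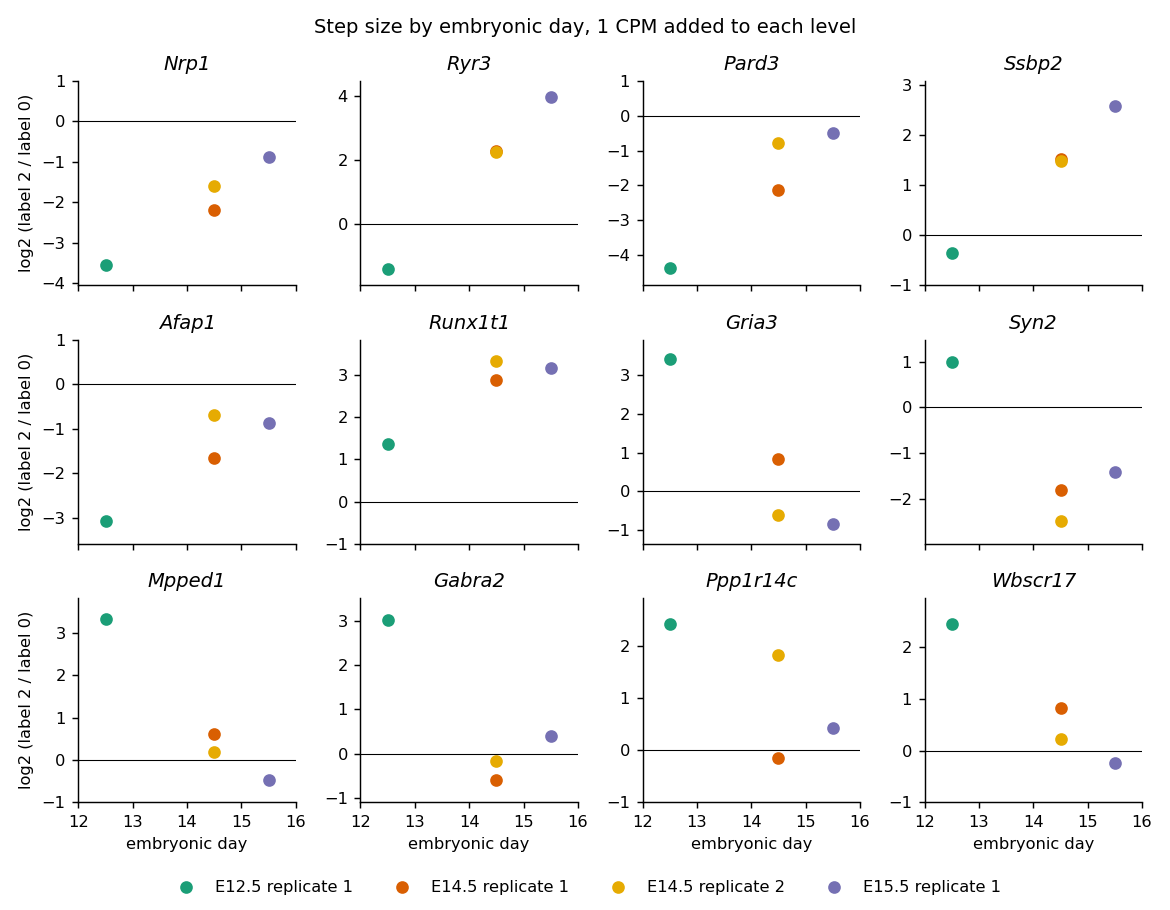
Log2 ratio of label 2 over label 0 (1 CPM added to each level) against embryonic day for the 12 genes named by the test of a change per day, 1 point per sample. In most panels the E12.5 point stands apart from the other 3, and Nrp1 moves up with each later stage.

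Cell numbers completed the comparison. Label 2 made up 39.1% of the cells of both labels at E12.5 (exact Clopper-Pearson 95% interval 35.7 to 42.6, for counting error only), 42.7% (40.0 to 45.4) and 26.3% (20.2 to 33.3) in replicates 1 and 2 of E14.5, and 28.3% (23.2 to 33.8) at E15.5. The 2 samples of E14.5 did not overlap in these intervals and differed by more than E12.5 and E15.5 did, so that no order by stage can be read from the shares. The shares were not tested.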

How the data were processed

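The deposited table holds UMI counts per gene and cell, whole numbers that the authors made with Drop-Seq tools 3.1 (per the labels' protocols), with Seurat 3.1.5 and the mm10 build named in the submitters' processing notes; the aligner and the counting strand are not given in the sources used here, so antisense and near-identical genes cannot be told apart. Cluster labels are the authors' deposited ones. The matrix holds 21862 genes and 10261 cells, the poorest cell having 501 genes and the highest mitochondrial share being 9.996%. Cells were taken as deposited and no doublet caller was run; leaving out the 5% of cells with most UMIs stands in for one.

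Counts were summed per sample and label (7 libraries, 4 samples), libraries of 1 sample being treated as repeat runs of it. The rule of choice names libraries as pairs, and that fit is given as an alternative. The 2 sums of a sample come from the same libraries, which is the pairing. Genes kept by filterByExpr were tested with edgeR 4.0.16 (R 4.3.3; TMM scaling, quasi-likelihood test, sample as block, 3 residual degrees of freedom) and Benjamini-Hochberg adjustment over all 7622 genes at 0.05; the change per day is the interaction of label and embryonic day (2 residual degrees of freedom). DESeq2 1.42.0 was an alternative. The edgeR fits, and not DESeq2, were also run on simulated sums in which all genes had the same spread. That spread was a dispersion of 0.02, against a common dispersion of 0.008648 in these data. The simulation therefore does not show how the fits perform on these data. CPM of genes are over TMM-scaled totals; marker sums and 4-label levels are over plain totals. Named genes are the 10 largest rises and falls with at least 50 CPM in the higher label and 1 direction in every sample, a set of key genes, up to 4 called genes per direction of each list, and up to 6 per direction of the change per day; other list members named were chosen after their values were seen, and some genes of these sets are not reported here. The members and lists were chosen with earlier results of these data known. Counting intervals and floors cover counting error only. Gene coordinates are of GRCm38, the assembly called mm10.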

Additional observations from a re-analysis of the deposited data

Results flagged for a closer look

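The log2 ratio of label 2 over label 0 (1 CPM added to each level) was examined in 4 samples for each of 158 named genes, and in 9 of them 1 sample stood apart from the other 3 by a gap above Dixon's 95% critical value; chance alone gives about 1 such gene in 20. At E15.5 Eomes had a ratio of −8.59, against −4.29 to −3.93 in the other samples, Slc17a6 had −7.57 against −3.14 to −2.45, and Nhlh1 had −7.50 against −2.46 to −1.85. In these 3 genes the label 2 sum of E15.5 held 0 counts among 207135 UMIs, which allows up to 14.5 CPM, so the size of the ratio is set by the added 1 CPM. Also at E15.5, Rnd2 had −2.59 against −0.90 to −0.70, Plxnb2 −2.40 against −0.88 to −0.66, Cdh8 −0.57 against −2.27 to −2.12, and Bhlhe22 0.69 against 0.40 to 0.43. At E12.5 Sox11 had −0.80 against −0.41 to −0.36, and Vim −0.91 against −0.49 to −0.48.

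The test of the difference between stages picked out 12 named genes. Per embryonic day the log2 ratio rose by 1.90 for Ryr3, 1.37 for Pard3, 0.97 for Ssbp2, 0.91 for Nrp1, 0.79 for Afap1 and 0.70 for Runx1t1. It changed by −1.46 for Gria3, −1.30 for Syn2, −1.26 for Mpped1, −1.02 for Gabra2, −0.94 for Ppp1r14c and −0.92 for Wbscr17.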

How the results depend on the processing

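No called step value of a named gene changed direction under the settings run, each of which tested 132 to 158 of these genes. The 1270 called genes became 405 with no replicate block (the pairing of the 2 sums of a sample taken out), 568 with DESeq2 and 643 to 1332 when 1 sample was left out; the lowest was without E14.5 replicate 1. The 476 genes called at 2-fold became 314 with no replicate block, 289 with library sums as pairs, 760 with no low count filter and 359 to 550 without 1 sample. The 66 genes whose step changed per day became 0 with no replicate block (210 at an unadjusted p under 0.05), 2 with DESeq2, 33 with both sums thinned to the smaller, 20 with cells of at most 5% mitochondrial UMIs and 26 to 77 without 1 sample. Without E12.5 the slopes of Neurod1, Robo2, Syn2 and Gabra2 turned to 0.10, −0.38, 0.49 and 0.87; over the samples left out they ranged between −0.51 and 0.10, −0.38 and 0.58, −1.47 and 0.49, and −1.77 and 0.87. Taking out the block ended 65 named calls, DESeq2 42, and leaving out E14.5 replicate 1 32. Label 2 shares moved to 43.3% at E12.5 and 45.5% in E14.5 replicate 1 among cells with at least 1000 UMIs, and to 42.7% at E12.5 among cells of at most 5% mitochondrial UMIs. Chosen after seeing the data, leaving out the 1 library whose sample was inferred from its name gave 1157, 461 and 63 genes, and leaving out the cell rich in haemoglobin 1272, 474 and 66. The cause of these differences was not tested.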

Other observations

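Of 13 tested of 20 glycolysis genes, 3 rose in label 2, 2 fell and 8 were not called, where 8.78% of all tested genes rose and 7.89% fell. The lactate dehydrogenase gene Ldha had 191, 203, 230 and 197 CPM in label 2, against 76.3, 87.1, 88.0 and 76.2 CPM in label 0, with no overlap (log2 fold change 1.3 ± 0.14, SE; edgeR adjusted p = 1.53e-07), while Ldhb fell by 0.57. The neuronal enolase gene Eno2 rose by 2.02. Cholesterol genes stayed near the background, with 1 rise and 1 fall among 19 tested of 22. Of 73 tested of 82 ribosomal protein genes, 9 fell (12.3%, near the share of all tested genes) and 1 rose (1.37%), with a median log2 fold change of −0.11. DESeq2 called 1 fall and 0 rises, and the fit without the sample block called 0 of these genes. Of 10 tested mitochondrially encoded genes none was called.

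Of 11 tested of 18 radial glia genes, 5 fell and 2 rose, where 7.89% of all tested genes fell and 8.78% rose. Ptprz1, a receptor phosphatase of radial glia, had 57.2, 322, 596 and 548 CPM in label 2, against 13.4, 58.3, 133 and 131 CPM in label 0, higher in label 2 in every sample and lowest in both labels at E12.5 (log2 fold change 2.23 ± 0.14, SE; edgeR adjusted p = 1.69e-11). Among immediate early genes, Fos fell by 1.57 and Jun rose by 0.61, and both varied widely between samples. Without E12.5 the log2 fold change of Jun was 0.28 and was not called (edgeR adjusted p = 0.0905), and DESeq2 did not call it either.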
